A study of Rattus norvegicus with 4 samples.

Results

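The genes described here are 10 genes of the Toll-like receptor and NF-kB pathway, namely the receptors Tlr2 and Tlr4, the adaptor Myd88, the receptor-associated kinase Irak1, the IKK kinases Ikbkb and Chuk, the NF-kB subunits Rela and Nfkb1 and the inhibitors Nfkbia and Nfkbib. They were chosen by name, through the RefSeq accession of each row of the deposited expression table, and a row had to hold a value on all 4 arrays. Of the 10 genes, 6 were measured in this way (Tlr2, Tlr4, Myd88, Ikbkb, Rela and Nfkbib), out of 18350 measured rows among 26420. No row could be assigned by accession to Irak1, Chuk, Nfkb1 or Nfkbia, and these genes were not analysed here. Where a gene had more than 1 row, the row with the highest mean was used.

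RNA came from the colon of Sprague Dawley rats, with 2 rats per group (control and MSCT), and each rat was measured on 1 one-color NimbleGen array. The MSCT group consists of male rats in which inflammatory bowel disease (IBD) was induced with TNBS in ethanol, given into the colon lumen, and which then received GFP-labelled mesenchymal stem cells (MSCs) through the tail vein. The control group received no MSCs. The sample descriptions call the control animals normal rats, while in the study's text they are IBD rats without MSCs, so treatment with TNBS and treatment with MSCs cannot be told apart here. The sources place the arrays at either day 14 or day 28, and they give no age. TNBS colitis is a chemically induced lesion, so the tissue on the array is a mixture of wall layers and infiltrating cells, and the share of donor cells in it was not measured on the arrays.

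Toll-like receptors recognise microbial molecules, Tlr2 those of bacterial lipoproteins together with Tlr1 or Tlr6 and Tlr4 lipopolysaccharide together with Ly96 and Cd14. Their signal runs through Myd88 and the Irak kinases to the IKK complex, which marks the IkB proteins for degradation and so frees NF-kB dimers such as Rela with Nfkb1 to enter the nucleus. In the colon this pathway is known both for driving inflammatory cytokines and for maintaining the epithelial barrier, and much of its control acts on protein modification and location, which an mRNA array does not measure.

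The promoters of the pathway were read first, because NF-kB acts through a DNA motif. Of the 5 measured members with a promoter entry, only Tlr2 held it in the 250 bases searched. RefSeq promoter sequences of the rat assembly GRCr8 were searched over the 250 bases before each gene start, on both strands, for the kB consensus and for its short form GGAANNTCC, and overlapping matches were joined. The consensus was found in 3.54% of 33469 promoters, the short form in 3.36% and either in 6.15%. Of the 10 listed genes, 9 had a promoter entry (all but Ikbkb), and 2 of these held a match, Tlr2 and the unmeasured Nfkbia. The Tlr2 match lies 206 to 196 bases before the gene start at chr2:171504733-171504783 (minus strand, with 20 flanking bases). For comparison, the windows of 4 NF-kB target genes described below are shown: Lcn2 and Icam1, which had an unadjusted p under 0.05, and Cxcl1 and Tap1, whose differences were 0.01 and -0.01 on the log2 scale. The windows lie at chr3:36081993-36082030 (minus strand, Lcn2), chr8:27829607-27829655 (plus strand, Icam1), chr14:17479375-17479425 (minus strand, Cxcl1) and chr20:4668569-4668618 (minus strand, Tap1). Capitals mark the match, to the consensus alone in Tlr2, to the short form alone in Icam1 and to both in Lcn2, Cxcl1 and Tap1.
Tlr2: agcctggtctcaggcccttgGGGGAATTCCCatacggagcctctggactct
Lcn2: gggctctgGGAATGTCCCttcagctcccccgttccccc
Icam1: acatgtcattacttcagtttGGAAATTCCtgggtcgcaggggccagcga
Cxcl1: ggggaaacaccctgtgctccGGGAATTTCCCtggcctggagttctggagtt
Tap1: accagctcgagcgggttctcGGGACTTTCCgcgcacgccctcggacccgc
A match says only that these letters are present, and the absence of a match in Tlr4, Myd88, Rela and Nfkbib says only that they are not in these windows.

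All values below are intensities as deposited on a linear scale, or differences of their log2 values, MSCT minus control. A difference of 1 on the log2 scale is a 2-fold change. The groups were compared with limma over all 18350 rows, with p-values adjusted by the Benjamini-Hochberg method over all of them, and the screen used in the study (fold change over 2 with an unadjusted p under 0.05) is given beside the adjusted value. With 2 arrays against 2, an exact two-sided permutation p is never below 0.333, so the p-values of limma rest on the variance that it shares between rows. Nothing states more about the rats than their group. The limma p-values combine the spread between these 4 animals within their groups with that shared variance. Tissue is a bulk sample, in which fewer cells of a type and less RNA per cell cannot be told apart. The median intensity lay between 848 and 893 on the 4 arrays. The summed intensity of 11 epithelial markers was 188262 and 184481 in the control rats and 208829 and 203304 in the MSCT rats. That of 6 smooth muscle markers ran from 142203 to 172440 over all 4 arrays. Such sums follow the brightest genes and do not tell colon from other parts of the gut. Of the 11 epithelial markers 9 were higher and 2 lower in the MSCT group, with a median difference of 0.22. Fabp2 differed most, at 94 and 520 in the control rats against 2761 and 1929 in the MSCT rats.

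Among the receptors, Tlr2 showed the largest difference of the 6 measured members. The intensity of Tlr2 (NM_198769) was 106 and 155 in the control rats and 166 and 266 in the MSCT rats. Both MSCT rats were therefore above both control rats, although MSCT replicate 1 exceeded control replicate 2 only narrowly and the rats within each group were spread widely. The difference was 0.71 on the log2 scale (1.64-fold, SE 0.34), with a 95% interval from -0.21 to 1.63 and an adjusted p of 0.499 by limma. It did not pass the screen. Leaving out MSCT replicate 1 moved it to 1.05, past the screen, and leaving out MSCT replicate 2 moved it to 0.37. Tlr2 was also the dimmest member, at the 11.9th percentile of mean intensity over all rows.

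Tlr4, the lipopolysaccharide receptor, was bright on all arrays and differed little. Its intensity (NM_019178) was 2139 and 2421 in the control rats and 2322 and 2922 in the MSCT rats. The groups overlapped, since MSCT replicate 1 lay between the control rats. The difference was 0.20 (SE 0.22, 95% interval from -0.39 to 0.78, limma adjusted p = 0.745), so that a change of the size seen for Tlr2 is inside its interval as well.

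Myd88, the adaptor shared by most Toll-like receptors and the interleukin-1 receptor family, was the other member whose groups did not overlap. Its intensity (NM_198130) was 4418 and 3885 in the control rats and 5044 and 5092 in the MSCT rats. Both MSCT rats were higher than both control rats and lay close to each other, while the control rats were further apart. The difference was 0.29 (1.22-fold, SE 0.19), with a 95% interval from -0.22 to 0.80 and a limma adjusted p of 0.590. Its size is near the median absolute difference of 0.279 over rows of all intensities. Myd88 itself was bright, at the 87.2th percentile of mean intensity.

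**Figure D1:**
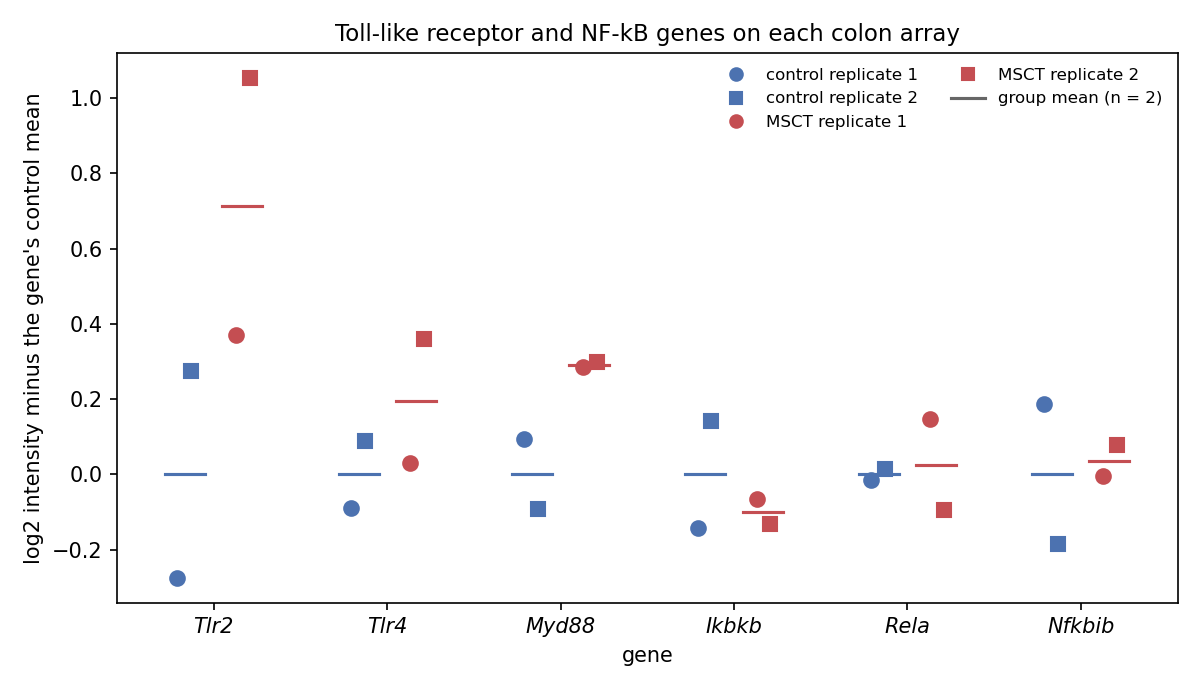
Log2 intensity of the 6 measured members on each array, shown relative to the gene's own control mean (vertical axis), with 2 control and 2 MSCT rats per gene. Points are single arrays and bars are group means. The MSCT points of Tlr2 and Myd88 lie above both control points, and those of Tlr4, Ikbkb, Rela and Nfkbib overlap them.

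Below the receptors and adaptor, the kinase, subunit and inhibitor showed values of both groups mixed together. Ikbkb, the catalytic kinase that phosphorylates IkB, had intensities (NM_053355) of 2273 and 2769 in the control rats and 2397 and 2289 in the MSCT rats. Both MSCT rats lay between the control rats, and the difference was -0.10 (SE 0.21, 95% interval from -0.65 to 0.45, limma adjusted p = 0.869).

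Rela, the transactivating p65 subunit of NF-kB, had intensities (NM_199267) of 3087 and 3153 in the control rats and 3454 and 2920 in the MSCT rats. The control rats were almost equal and lay between the MSCT rats. The difference was 0.03 (SE 0.20, 95% interval from -0.50 to 0.55, limma adjusted p = 0.969), which was the smallest of the 6.

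Nfkbib, the inhibitor IkB-beta that holds NF-kB in the cytoplasm, had intensities (NM_030867) of 4869 and 3757 in the control rats and 4261 and 4512 in the MSCT rats. Here too the MSCT rats lay between the control rats, and the difference was 0.04 (SE 0.22, 95% interval from -0.55 to 0.63, limma adjusted p = 0.961). The signs of Ikbkb, Rela and Nfkbib each turned when 1 array was left out, with values between -0.24 and 0.22, so no direction is given for them.

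Taking the 6 measured members as a group, 5 had a higher mean in the MSCT group and 1 a lower mean, against 48.0% of all rows with a higher mean. The median difference was 0.12 on the log2 scale, beside -0.02 over all rows, and the median absolute difference was 0.147, beside 0.279 over all rows. The rows behind 0.279 include the dim ones, where the scatter is wide, and were not matched to the members by intensity. The 2 groups were fully separate for 2 of the 6 members, both higher, whereas they were separate for 45.8% of all rows. None of the 6 members had an unadjusted p under 0.05 by limma, against 12.0% of all rows (4.80% higher and 7.17% lower). A t-test with equal variances was also run on the log2 values of each row alone (per-row t-test). Its count was also 0, against 9.66% of all rows. Past the screen were 0 of the 6, against 4.63% of all rows (2.12% higher and 2.51% lower). With adjustment by limma, 0 rows of the table passed 0.05 (0% of 18350, lowest adjusted p 0.257), while 2196 had an unadjusted p under 0.05. The per-row t-test passed 0 rows with adjustment as well. These counts do not show that the members were equal in the groups. The 95% intervals of the 5 brighter members reach from -0.65 at the lowest to 0.80 at the highest.

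**Figure D2:**
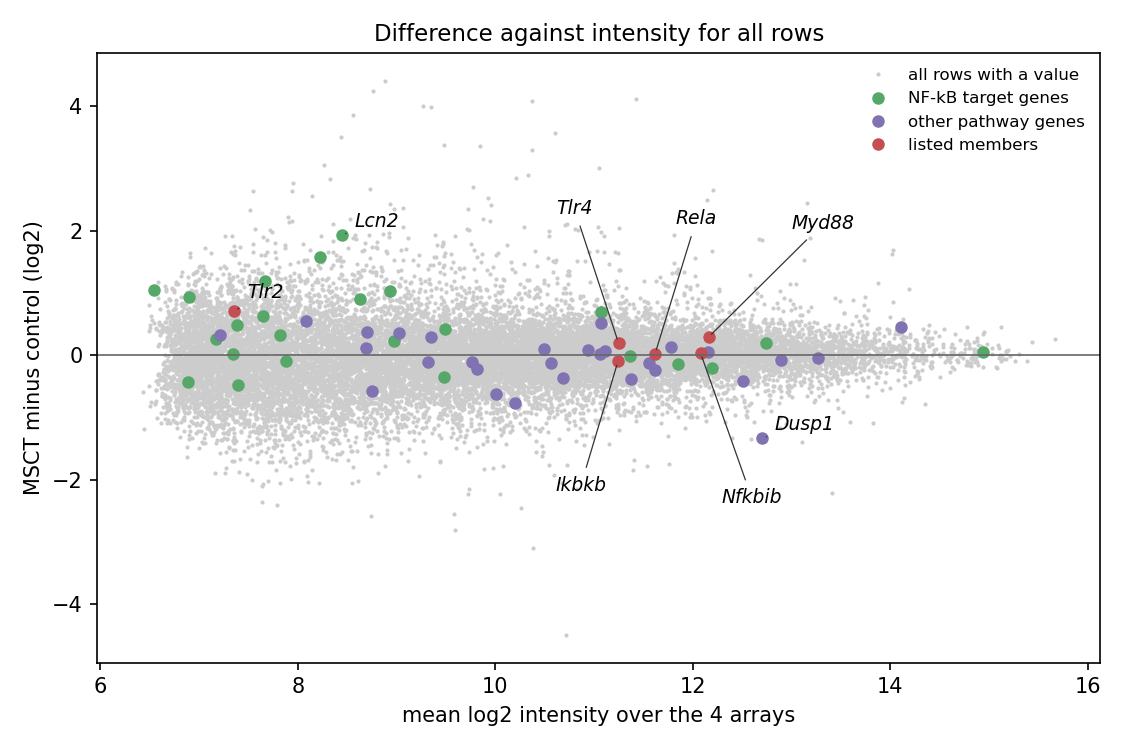
Difference in log2 intensity, MSCT minus control (vertical axis), against mean log2 intensity (horizontal axis) for the 18350 measured rows, with the members, the other pathway genes and the NF-kB targets in color. Tlr2 lies at the dim end, where the scatter is wide, and the other 5 members lie near 0 among the bright rows.

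Besides the 10 genes, a list of 89 further genes of the pathway was examined, of which 29 were measured, 3 had rows that were blank on all 4 arrays (Tlr7, Tlr9 and Il1rl1) and 57 had no row by accession. The latter included Tlr5, Traf6, Irak4, Rel, Relb and Tnfaip3. Of the 29 measured genes, 14 were higher and 15 lower in the MSCT group, with a median difference of -0.04. By limma only the phosphatase gene Dusp1 had an unadjusted p under 0.05 (12.0% of all rows did), and it alone passed the screen (4.63% of all rows), in the lower direction. The per-row t-test also gave 1 gene an unadjusted p under 0.05 (9.66% of all rows), but this was the chaperone gene Hsp90b1, in the higher direction. With that test none of the 29 passed the screen (2.11% of all rows). The groups did not overlap for 12 genes (4 higher and 8 lower), a share near the 45.8% of all rows. Without control replicate 2, 5 of the 29 genes had an unadjusted p under 0.05, where 14.6% of all rows did.

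The other receptors and coreceptors did not move in 1 direction. Tlr6, which pairs with Tlr2, had intensities of 176 and 286 in the control rats and 286.03 and 375 in the MSCT rats, so that the groups were barely separate (285.72 against 286.03), and the difference was 0.55 (SE 0.32, limma adjusted p = 0.557). Without control replicate 2 it was 0.90, with an unadjusted p under 0.05, and without control replicate 1 it was 0.20. Tlr3, the receptor for double-stranded RNA, was lower, with 1629 and 2140 against 1408 and 1498, a difference of -0.36 (SE 0.23, adjusted p = 0.573). Both genes had groups that did not overlap, yet in opposite directions.

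The coreceptors of Tlr4 gave no separation. Cd14, which passes lipopolysaccharide to Tlr4, had intensities of 9308 and 10814 in the control rats and 8986 and 10578 in the MSCT rats, a difference of -0.04 (SE 0.21). Ly96, the MD-2 protein bound to Tlr4, differed by -0.10 (SE 0.21), with intensities between 767 and 944 on the 4 arrays. Lbp, the lipopolysaccharide-binding protein, differed by 0.52 (SE 0.38), but its groups overlapped and its value was 0.96 without MSCT replicate 1 and 0.08 without MSCT replicate 2. Hsp90b1, the chaperone gp96 that folds Toll-like receptors, was separate, with 14796 and 15332 against 21828 and 19598, a difference of 0.46 (SE 0.19, limma adjusted p = 0.448). Its unadjusted p was above 0.05 by limma on all rows but below it by the per-row t-test. It was also below 0.05 by limma without the dimmest 25% or 50% of rows and with a variance that depended on intensity.

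Of the adaptors and proximal kinases other than Myd88, 5 were measured, with 3 higher and 2 lower. Irak2, a kinase recruited by Myd88, was lower in both MSCT rats, with 2826 and 3229 against 2586 and 2094, a difference of -0.38 (SE 0.22, adjusted p = 0.548). Map3k8 (Tpl2), which links the pathway to ERK, had 668 and 416 against 371 and 335, a difference of -0.58 (SE 0.30, adjusted p = 0.513), which became -0.92 without control replicate 2, with an unadjusted p under 0.05, and -0.24 without control replicate 1. The ubiquitin-conjugating enzyme Ube2n, the adaptor Ecsit and the Traf6-binding protein Tifa had overlapping groups, at 0.14, 0.05 and 0.38.

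At the level of the IKK complex and its substrates, 7 further genes were measured. Ikbkg, the regulatory subunit NEMO, had 325 and 487 against 343 and 544, with a wide spread in both groups and a difference of 0.12 (SE 0.35). Tank, which regulates Traf and IKK-related kinases, was separate at 0.36 (SE 0.21, adjusted p = 0.549), and the ubiquitin ligase Birc2 was at -0.12. Nfkb2, the p100 subunit of the alternative pathway, had 2054 and 2212 against 2285 and 2035, a difference of 0.02 (SE 0.19). The IkB family members Nfkbie and Nfkbil1 were at 0.30 and -0.22 and the nuclear regulator Cactin at 0.09, of which Nfkbil1 had separate groups.

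Among 7 measured negative regulators, Dusp1 stood apart. Dusp1 encodes a phosphatase that switches off p38 and JNK downstream of Toll-like receptors and is itself induced by stress and glucocorticoids. Its intensity was 12010 and 9359 in the control rats and 5176 and 3418 in the MSCT rats. Both MSCT rats were well below both control rats. The difference was -1.33 (SE 0.30, 95% interval from -2.12 to -0.55, limma adjusted p = 0.299), which is 2.52-fold lower. By the per-row t-test, Dusp1 had an unadjusted p of 0.0622 on the same values.

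Nlrx1, a mitochondrial protein that restrains antiviral and NF-kB signalling, had 1965 and 1195 in the control rats and 964 and 846 in the MSCT rats. The groups were separate, but the control rats differed from each other by more than the MSCT rats from control replicate 2. The difference was -0.76 (SE 0.31, limma adjusted p = 0.439), -1.12 and past the screen without control replicate 2, and -0.40 without control replicate 1. Socs1, a feedback inhibitor of cytokine signalling, was separate and higher at 0.32 (SE 0.22). Sigirr, an inhibitory receptor of the interleukin-1 receptor family, was separate and lower at -0.12 (SE 0.18). The RNase Zc3h12a and the ubiquitin ligase Pdlim2 overlapped at 0.10 and -0.11.

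The 4 measured interferon regulatory factors, the transcription factors of the interferon branch, all had lower means in the MSCT group. Irf3 had 7259 and 6220 against 4877 and 5231, a difference of -0.41 (SE 0.20, limma adjusted p = 0.499), and was the only one with separate groups. Irf7 had 1770 and 924 against 958 and 717, a difference of -0.63 (SE 0.39), which became -1.09 and passed the screen without control replicate 2 and -0.16 without control replicate 1. Irf8 was at -0.24 and Irf1 at -0.08. None of the 4 had an unadjusted p under 0.05 by limma with default settings on all rows, while Irf3 had one without the dimmest 50% of rows and with a variance that depended on intensity.

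**Figure D3:**
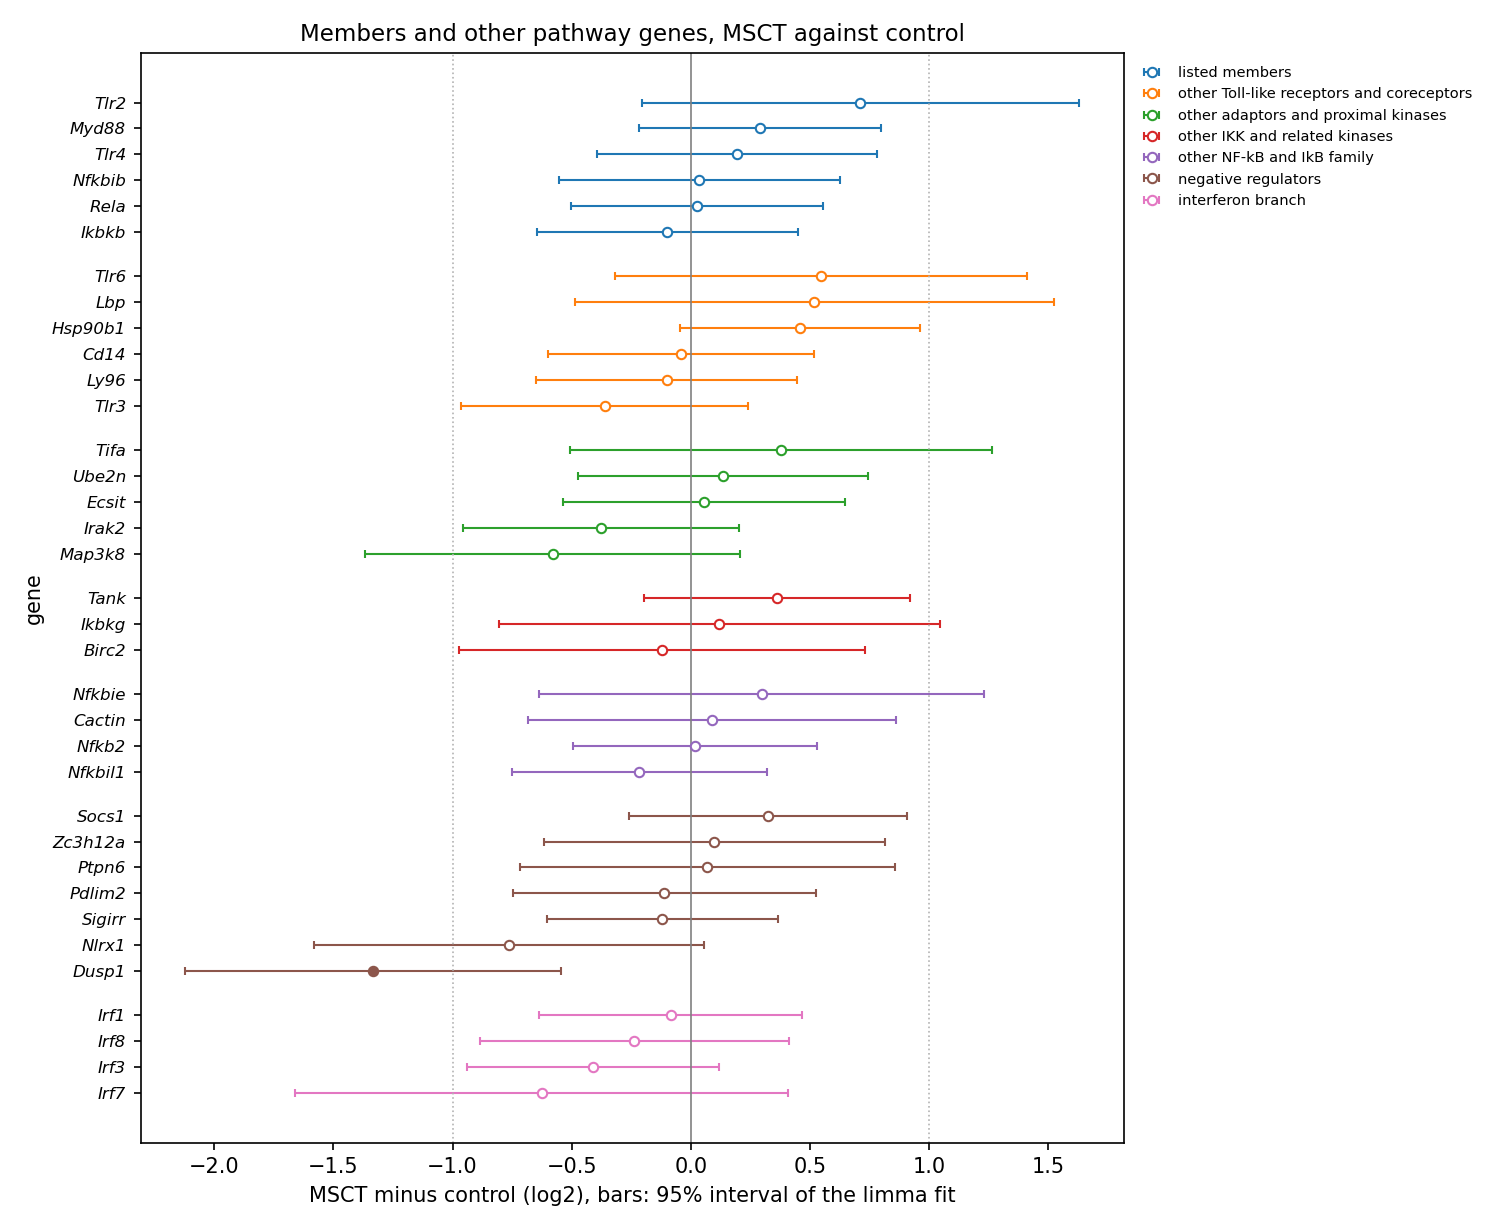
Differences in log2 intensity, MSCT minus control (horizontal axis), with 95% limma intervals, for the 6 members and the 29 further genes of the pathway; filled points have an unadjusted p under 0.05 and dotted lines stand at a 2-fold change. Dusp1 at -1.33 is the only filled point, and the 6 members lie between -0.10 and 0.71.

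The known target genes of NF-kB were examined as a readout downstream of the members, on a list of 45 genes, of which 24 were measured, 14 had blank rows and 7 had no row. The blank rows included Tnf, Il1b, Il6, Cxcl2 and Nos2, which are classical products of the pathway, and for these no level can be given. Of the 24 measured targets, 17 were higher and 7 lower in the MSCT group, with a median difference of 0.30 beside -0.02 over all rows. An unadjusted p under 0.05 was found for 5 targets, all higher, and 3 of them passed the screen (Lcn2, Plau and Tnfrsf1b), whereas over all rows 4.80% had such a p in the higher direction and 2.12% passed the screen in it. None passed with adjustment by limma, nor by the per-row t-test, which gave 2 targets an unadjusted p under 0.05 (9.66% of all rows). The arrays did not overlap for 14 of the 24 targets (10 higher and 4 lower), beside 45.8% of all rows. The count of 5 became 2 without MSCT replicate 2 (10.0% of all rows in that fit) and 7 without control replicate 2 (14.6% of all rows). Most targets were dim, and 6 of the 24 were left when the dimmer 50% of rows was removed.

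Lcn2, a siderophore-binding protein of mucosal defence that is a marker of gut inflammation, showed the largest difference among the targets. Its intensity was 181 and 176 in the control rats and 802 and 576 in the MSCT rats. The control rats were nearly equal and both MSCT rats far above them. The difference was 1.93 (3.81-fold, SE 0.24, 95% interval from 1.28 to 2.57, limma adjusted p = 0.257).

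Plau, the urokinase plasminogen activator, had 217 and 140 against 362 and 738, a difference of 1.57 (SE 0.44, adjusted p = 0.338). Its MSCT rats differed from each other by about as much as MSCT replicate 1 from the control group, and the unadjusted p was above 0.05 without control replicate 2 (1.25) or without MSCT replicate 2 (1.06). Tnfrsf1b, a receptor of tumor necrosis factor, had 325 and 360 against 861 and 566, a difference of 1.03 (SE 0.28, adjusted p = 0.330), with values of 0.95 without control replicate 1 and 0.73 without MSCT replicate 1, neither of which kept an unadjusted p under 0.05.

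Icam1, an adhesion molecule for leukocytes, showed little spread within either group, with 305 and 276 in the control rats and 519 and 566 in the MSCT rats. The difference was 0.90 (1.87-fold, SE 0.19, adjusted p = 0.291), and without MSCT replicate 2 it was 0.84 and no longer had an unadjusted p under 0.05. Hif1a, a subunit of the hypoxia-inducible factor, had 1464 and 1937 against 2723 and 2750, a difference of 0.70 (SE 0.23, adjusted p = 0.369), and lost an unadjusted p under 0.05 in 3 of the 4 fits that left out 1 array, with 0.50 without control replicate 1, 0.71 without MSCT replicate 1 and 0.69 without MSCT replicate 2. The chemokines Ccl20 and Cxcl1 were at 0.49 (SE 0.21, groups separate) and 0.01 (SE 0.23, groups overlapping).

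**Figure D4:**
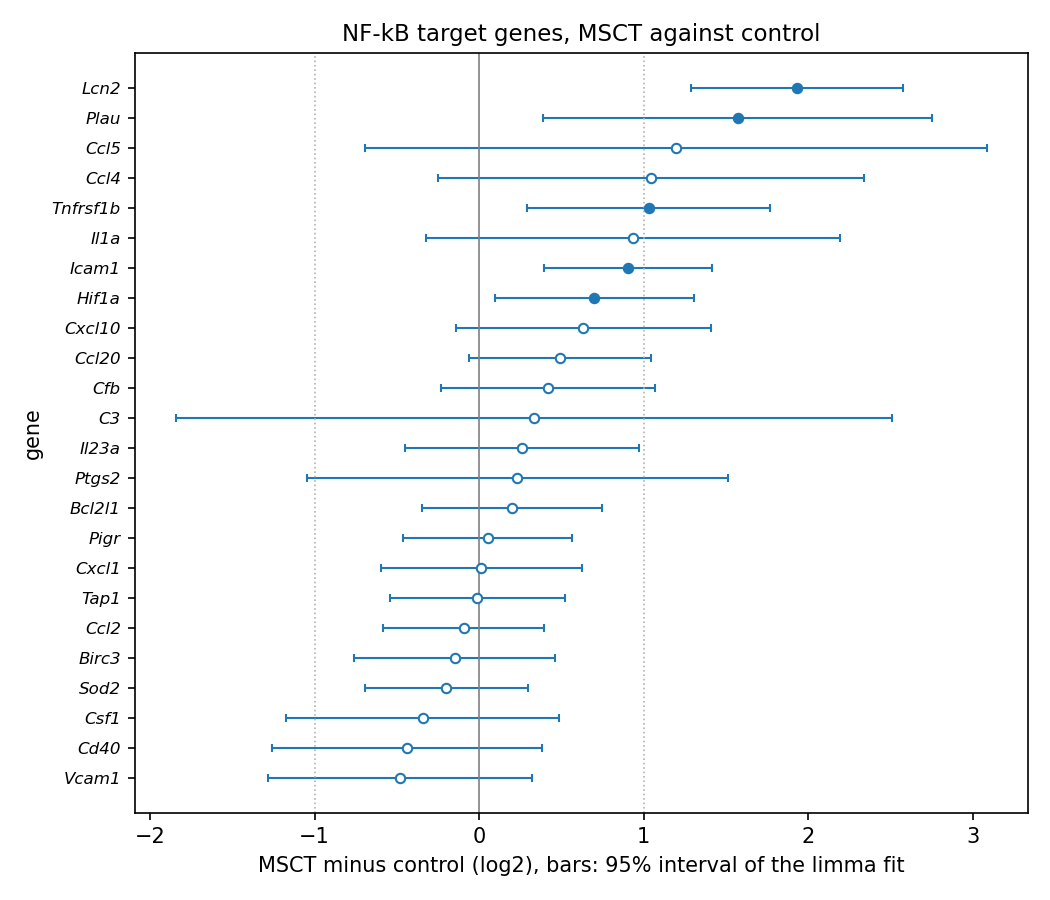
Differences in log2 intensity, MSCT minus control (horizontal axis), with 95% limma intervals, for the 24 measured NF-kB target genes; filled points have an unadjusted p under 0.05 and dotted lines stand at a 2-fold change. The 5 filled points are Lcn2, Plau, Tnfrsf1b, Icam1 and Hif1a, all to the right of 0.

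A promoter entry was held by 17 of the 24 measured targets, and 7 of these (41.2%) had a match to either motif, beside 6.15% of all promoters. The 7 were Lcn2, Icam1, Cxcl10, Ccl20, Cxcl1, Tap1 and Vcam1, of which Cxcl10, Tap1 and Vcam1 were named after their values had been seen. Targets are known for such sites, so this share describes the list. Their differences ran from -0.48 (Vcam1) to 1.93 (Lcn2), with Cxcl10 at 0.63 (0.91 and an unadjusted p under 0.05 without control replicate 1) and Tap1 at -0.01, and Tap1 turned to 0.026 when the arrays were set to equal medians. Of the 5 targets with an unadjusted p under 0.05, 2 held a match (Lcn2 and Icam1), and the window of Plau, Tnfrsf1b and Hif1a held none. A match to the consensus, as in Tlr2, was thus held by Lcn2, with an unadjusted p under 0.05 by limma. It was also held by Cxcl1 and Tap1, whose groups overlapped. Further holders were Cxcl10 and Ccl20, with separate groups and higher, and Vcam1, with separate groups and lower. Groups were separate for 45.8% of all rows.

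Tlr2 and several of the targets are also expressed by macrophages, and markers of these cells differed in the same direction. Of 15 macrophage and monocyte markers 10 were measured, and 8 of them had an unadjusted p under 0.05, all higher in the MSCT group, with 5 past the screen and a lowest adjusted p of 0.257 by limma. Over all rows, 4.80% had such a p in that direction and 2.12% passed the screen in it. With adjustment, 4 of the 6 markers left without the dimmest 50% of rows passed 0.05, where 247 of 9175 rows did. With the intensity-dependent variance 5 of the 10 passed, where 387 of 18350 rows did. None of the 10 passed by default limma or the per-row t-test. The summed intensity of the 10 markers was 17654 and 19130 in the control rats and 25369 and 29631 in the MSCT rats. Of these sums, Cd14 made up 9308 and 10814 in the control rats and 8986 and 10578 in the MSCT rats. The lysosomal protein Cd68 had 1023 and 1146 against 2389 and 2942, a difference of 1.29 (limma adjusted p = 0.260), the complement genes C1qa, C1qb and C1qc were at 1.28, 1.61 and 0.91, and Cd14 was at -0.04. Without MSCT replicate 2, C1qc was at 0.74 and no longer had an unadjusted p under 0.05. Itgam was blank on all 4 arrays, and the other 4 unmeasured markers had no row. The part of these cells in the values of Tlr2 and the targets was not tested.

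Markers of other immune cells had higher sums in both MSCT rats, carried by some of the genes of each list. The summed intensity of 6 T and NK cell markers was 1041 and 891 in the control rats and 2028 and 1791 in the MSCT rats, that of 3 B and plasma cell markers 5420 and 5271 against 8517 and 8671, that of 5 mast cell markers 1326 and 1053 against 4140 and 3099, and that of 3 neutrophil markers 538 and 393 against 681 and 671. Past the screen, all of them higher, were 3 of the 6 T and NK cell markers (Zap70, Nkg7 and Gzmb). The same held for 1 each of the 3 B and plasma cell (Mzb1), 5 mast cell (Mcpt1), 3 neutrophil (Ncf1) and 11 epithelial markers (Fabp2). None of the 5 endothelial or 6 smooth muscle markers passed. Over all rows, 2.12% passed the screen in the higher direction. The other 3 T and NK cell markers, Cd3g, Cd4 and Cd8a, were at 0.13, 0.37 and 0.006 with overlapping groups. The mast cell sum in the MSCT rats was mostly Mcpt1 (2530 and 1871). In the same rats the B and plasma cell sum was mostly Xbp1 (5536 and 5351) and Sdc1 (2721 and 3076), while Mzb1 added 260 and 244. The neutrophil marker Np4 was at -0.86. These marker genes were named after their values had been seen. Tlr4, Myd88, Rela, Ikbkb and Nfkbib are expressed by epithelial as well as immune cells, and their share from each cell type cannot be told apart on these arrays.

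**Figure D5:**
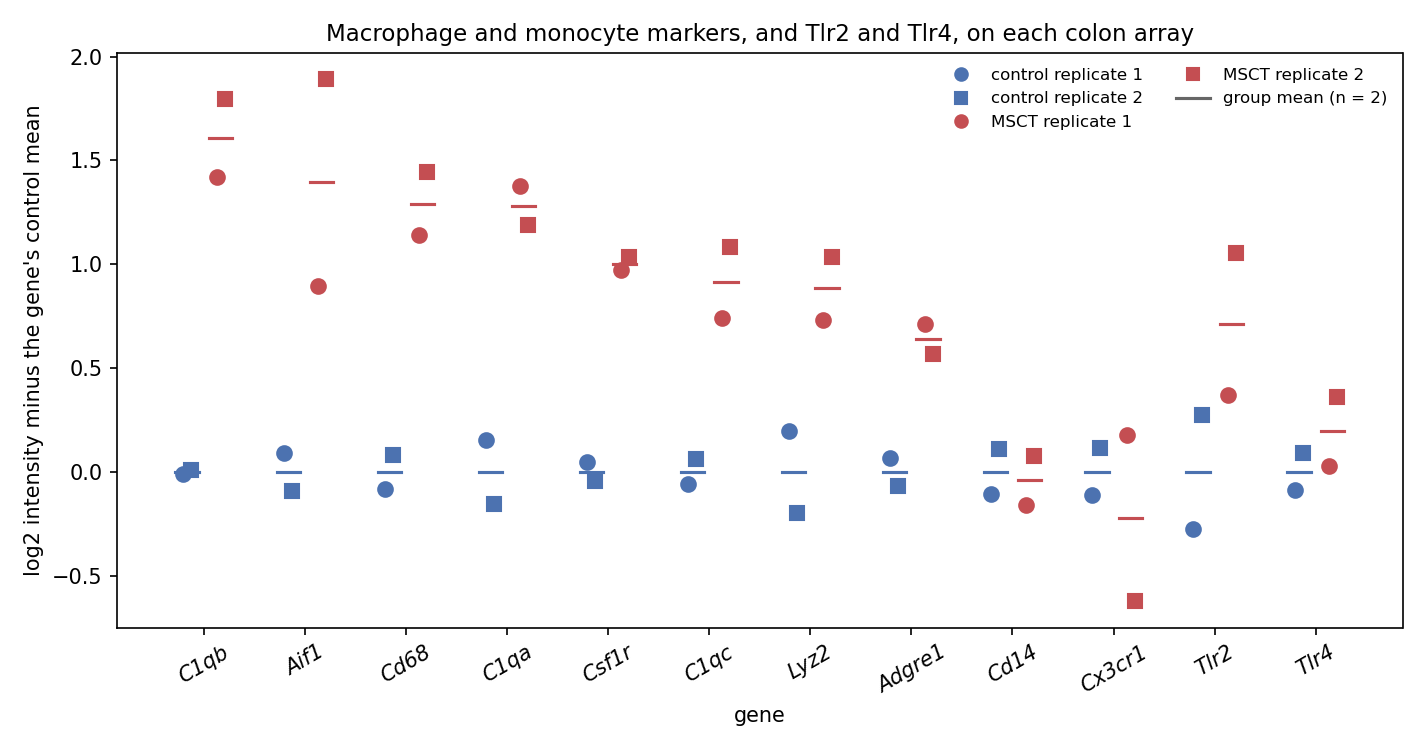
Log2 intensity of the 10 measured macrophage and monocyte markers and of Tlr2 and Tlr4 on each array, relative to the gene's own control mean (vertical axis). Points are single arrays (2 control and 2 MSCT rats) and bars are group means. Both MSCT points lie above both control points for 8 of the 10 markers and for Tlr2, while Cd14, Cx3cr1 and Tlr4 overlap.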

How the data were processed

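Colon RNA of 4 rats (2 control, 2 MSCT) was hybridised to one-color NimbleGen arrays. After a GenePix scan and extraction in NimbleScan, the authors deposited 1 linear intensity per RefSeq transcript for each array. RMA is named in the submitters' processing notes, and its settings and the rule that left 8070 rows (30.5%) blank on all 4 arrays are not given in the sources used here. Precision is limited by the small number of arrays. All 4 value columns were matched to a sample, with 0 left over.

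Intensities were converted to log2 without further scaling, pseudocount or filter and compared with limma 3.58.1 (lmFit and eBayes) in R 4.3.3, with Benjamini-Hochberg adjustment over 18350 rows. Intervals are 95% intervals of that fit. Rows were named by accession through the RefSeq gene table of GRCr8 (7068 measured rows, 6968 genes), which does not cover most predicted transcripts. Python 3.11.15, pandas 2.3.3 and matplotlib 3.10.9 were used for names, promoter searches and figures. The test was checked on simulated data.

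The members, gene lists and tests were chosen with earlier results of these data known. Named in the text are all members, the genes of each pathway or target list with the lowest p (up to 6), a fixed set of well-known genes where measured, and macrophage markers by highest mean and lowest p. Any other gene was named after its value was seen. Alternatives were quantile normalization, equal array medians, removal of the dimmest 25% or 50% of rows and an intensity-dependent variance (trend and robust options of eBayes). Further ones were the per-row t-test, the replicate block, leaving out each array and the lowest row per gene. The last were 50 added to the intensity and fold changes of linear means. Groups came from the labels, which name no batch.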

Additional observations from a re-analysis of the deposited data

How the results depend on the processing

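Of 53 named genes, 36 kept their direction under all alternatives run, and of the 6 members 3 did (Tlr2, Tlr4 and Myd88). Past the screen were 0 members on all arrays, and between 0 and 1 (Tlr2) when 1 array was left out. The count of members with an unadjusted p under 0.05, which was 0, ranged from 0 to 1 when 1 array was left out. The count of members with separate groups, 2 on all arrays, was 1 without the dimmest 25% and 1 without the dimmest 50% of rows, where Tlr2 was removed by the filter, and ranged from 3 to 5 when 1 array was left out, where 69.2% to 77.6% of all rows were separate. The labels share replicate numbers between the groups, but nothing states that they pair the rats, and the deviations of same-numbered arrays correlated at 0.234. Across all rows, control replicate 2 correlated more with MSCT replicate 2 (0.959) than with control replicate 1 (0.953). The MSCT arrays correlated at 0.964 with each other, and the other pairs between the groups at 0.934 to 0.943. With the replicate block, 1 member (Tlr2, unadjusted p 0.0237, adjusted p 0.298 by limma) and 2 pathway genes had an unadjusted p under 0.05, beside 14.6% of all rows. For the pathway genes the count was 1 on all arrays, 3 without the dimmest 25%, 4 without the dimmest 50%, 4 with the intensity-dependent variance (15.7%, 18.9% and 14.7% of all rows), 2 with 50 added and from 1 to 5 when 1 array was left out. For the targets it was 5 on all arrays, 1 without the dimmest 50%, 2 by the methods' t-test and from 2 to 7 when 1 array was left out. With adjustment, no member passed 0.05 under any alternative, while over all rows 4 passed without the dimmest 25%, 247 without the dimmest 50% and 387 with the intensity-dependent variance, among them Dusp1, Cd68, C1qa and C1qb under the last pair and Lcn2 and C1qc under the last. The direction of 17 genes turned in at least 1 alternative. With 1 array left out the difference ranged from -0.24 to 0.044 for Ikbkb, -0.096 to 0.15 for Rela, -0.15 to 0.22 for Nfkbib, -0.23 to 0.030 for Ly96, -0.16 to 0.076 for Cd14, -0.038 to 0.31 for Ube2n, -0.11 to 0.22 for Ecsit, -0.46 to 0.22 for Birc2, -0.21 to 0.45 for Ikbkg, -0.10 to 0.70 for Nfkbie, -0.20 to 0.38 for Cactin, -0.067 to 0.10 for Nfkb2, -0.30 to 0.080 for Pdlim2, -0.15 to 0.35 for Zc3h12a, -0.22 to 0.049 for Irf1, -0.19 to 0.22 for Cxcl1 and -0.11 to 0.089 for Tap1. Setting the arrays to equal medians turned Tap1 to 0.026. The cause of these changes was not tested. Dim rows limit Tlr2 and most targets, whose intensities are low.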

Other observations

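A pair of further lists was examined, chosen after the data had been seen. Neither held a gene with an unadjusted p under 0.05 by limma, beside 12.0% of all rows. Groups were separate for 2 of the 4 measured genes of the first list and 2 of the 6 of the other, beside 45.8% of all rows. Of 10 other receptors that signal to NF-kB, 4 were measured. Tnfrsf1a, the main receptor of tumor necrosis factor, had 3056 and 2334 in the control group and 3487 and 3356 in the MSCT group, a difference of 0.36 (SE 0.22, adjusted p = 0.574) with separate groups. Ltbr, the lymphotoxin beta receptor that feeds the alternative pathway, was also separate, with 5786 and 5720 against 5511 and 5219, yet differed by only -0.10.

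Of 10 inflammasome genes, which process interleukin-1 family cytokines, 6 were measured, with 4 higher and 2 lower and a median difference of 0.18. Casp1, the protease of the inflammasome, had 1284 and 1711 against 2174 and 1882, a difference of 0.45 (SE 0.24, adjusted p = 0.523). Its substrate Il18 lay in the opposite direction, with 1771 and 2116 against 1304 and 1560, a difference of -0.44 (SE 0.22, adjusted p = 0.504). The groups were separate for both genes. Pycard, the adaptor ASC, differed by 0.59 (SE 0.40) with overlapping groups, and its value was 1.08 and past the screen without control replicate 2 and 0.10 without control replicate 1.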
